A study of Mus musculus with 8 samples.

Results

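The genes described here are 10 mouse antiviral effectors whose transcription is induced by interferons: Ifit1, Ifit2, Ifit3, Mx1, Mx2, Gbp2, Rsad2, Bst2, Ifi44 and Ifi27l2a. Every probe set whose gene symbol in the deposited table matched one of these names was taken, which gave 13 probe sets of the 45037 on the array and 10 genes of the 20680 symbols it carries. Rsad2 had 3 probe sets, Gbp2 had 2 and each of the other genes had 1. RNA came from CH310T1/2 cells, the labels' spelling for a mouse mesenchymal line that can be led to form cartilage in dense micromass cultures. The cells had been electroporated once with a plasmid, and total RNA was hybridised to 8 Affymetrix arrays in 4 groups of 2. The groups were Erg on day 1 (a plasmid with the Col2 promoter driving Erg-010, which codes for the ETS transcription factor Erg), control plasmid on day 1, Erg on day 0 (the CMV promoter driving Erg-010), and control plasmid on day 0. All 4 groups therefore carried a plasmid and had been electroporated, and no group without a plasmid was analysed here. The promoter of the Erg plasmid changed with the day, so promoter and day cannot be told apart within the arrays labelled Erg. Array numbers 1 to 4 held the day 0 RNA and 5 to 8 the day 1 RNA, so the order of the arrays cannot be told apart from the day. Whether the 2 arrays of a group stand for separate cultures is not in the labels. The p-values measure only the spread between replicate arrays, pooled over all 4 groups.

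Interferons are secreted when a cell senses foreign nucleic acid, and they act on the same cell and its neighbours. Type I interferons bind a surface receptor whose Janus kinases phosphorylate STAT proteins, which join IRF9 and bind an interferon-stimulated response element in the promoters of target genes. The targets include proteins that block single steps of viral growth, and fibroblasts and other mesenchymal cells are able to express them. Ifit proteins bind viral RNA and limit its translation, Mx proteins and guanylate-binding proteins are large GTPases, Rsad2 (viperin) makes a chain-terminating nucleotide, and Bst2 (tetherin) holds budding virus on the cell surface.

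RefSeq promoter windows of the GRCm38.p6 assembly, 300 bases long and beginning 250 bases before each gene's start, were at hand for 7 of the 10 genes, as 8 windows, since Ifit2 had 2. Mx1, Mx2 and Ifi27l2a had none. The windows are shown because all 10 genes differed in the same direction between the days. They were searched on both strands for the core of the interferon-stimulated response element, written here as GAAA, any 2 bases and GAAA again. It was found in 5 of the 8 member windows, which is 62.5%, and in 1131 of all 32851 windows, which is 3.44%. The genes were listed as interferon-induced, so the higher share could come from that choice alone. It does not bear on the difference between the days. The 250 bases before the start are given below for the 5 genes whose window held the motif, and for Ifi44, the gene with the largest difference between the days. Capitals mark the motif, which on the other strand reads TTTC, any 2 bases and TTTC.

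Ifit1, chr19:34640639-34640888, + strand: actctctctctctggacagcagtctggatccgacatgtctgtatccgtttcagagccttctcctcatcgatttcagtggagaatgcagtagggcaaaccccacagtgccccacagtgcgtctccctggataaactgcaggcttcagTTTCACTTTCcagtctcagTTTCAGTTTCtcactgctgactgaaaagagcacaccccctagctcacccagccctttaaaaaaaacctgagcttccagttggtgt

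Ifit3, chr19:34583279-34583528, + strand: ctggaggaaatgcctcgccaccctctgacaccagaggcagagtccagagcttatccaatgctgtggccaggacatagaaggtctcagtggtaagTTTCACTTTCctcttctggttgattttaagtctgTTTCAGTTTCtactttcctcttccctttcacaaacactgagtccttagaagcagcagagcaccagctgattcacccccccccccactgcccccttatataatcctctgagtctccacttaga

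Gbp2, chr3:142620413-142620662, + strand: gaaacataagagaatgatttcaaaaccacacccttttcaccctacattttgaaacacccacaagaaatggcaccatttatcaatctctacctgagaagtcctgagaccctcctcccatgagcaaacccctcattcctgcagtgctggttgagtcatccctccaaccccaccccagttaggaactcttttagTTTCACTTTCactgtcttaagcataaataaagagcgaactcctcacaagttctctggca

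Rsad2, chr12:26456453-26456702, - strand: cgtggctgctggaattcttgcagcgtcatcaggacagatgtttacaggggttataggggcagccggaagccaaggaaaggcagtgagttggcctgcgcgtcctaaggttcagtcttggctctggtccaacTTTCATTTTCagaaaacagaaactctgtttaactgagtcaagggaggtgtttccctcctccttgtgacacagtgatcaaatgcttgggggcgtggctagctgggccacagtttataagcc

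Bst2, chr8:71537473-71537722, - strand: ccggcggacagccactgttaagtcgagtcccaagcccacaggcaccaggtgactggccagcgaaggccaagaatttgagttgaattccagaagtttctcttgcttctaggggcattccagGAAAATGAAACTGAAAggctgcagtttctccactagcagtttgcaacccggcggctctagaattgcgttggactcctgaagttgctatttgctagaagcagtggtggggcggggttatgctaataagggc

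Ifi44, chr3:151749911-151750160, - strand: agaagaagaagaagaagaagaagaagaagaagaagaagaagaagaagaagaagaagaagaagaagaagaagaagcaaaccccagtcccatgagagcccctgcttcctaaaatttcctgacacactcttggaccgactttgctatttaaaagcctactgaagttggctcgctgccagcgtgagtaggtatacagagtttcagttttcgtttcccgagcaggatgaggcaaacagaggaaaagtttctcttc

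Ifit1 and Ifit3 each held 2 matches, TTTCACTTTC and then TTTCAGTTTC, beginning 104 and 85 bases before the start of Ifit1 and 156 and 122 bases before the start of Ifit3. Gbp2 held TTTCACTTTC 59 bases before its start, and Rsad2 held TTTCATTTTC 120 bases before its start. In Bst2 the matches GAAAATGAAA and GAAACTGAAA overlapped, at 130 and 124 bases before the start. The window of Ifi44 and both windows of Ifit2 did not hold these letters. These matches describe the letters and do not show binding.

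The arrays had similar overall levels, with medians from 6.59 to 6.70 and first quartiles from 5.26 to 5.38 on the log2 scale. Detection calls were not used here, and a probe set below the first quartile of its array is called dim below. Erg itself, the targeted gene, did not read higher with the Erg plasmids. Its probe set 1440244_at read 8.53 and 7.68 in the arrays labelled Erg on day 1, 8.43 and 8.50 in control on day 1, 6.79 and 5.59 in Erg on day 0, and 7.30 and 7.61 in control on day 0. The other Erg probe set, 1425370_a_at, read between 6.62 and 7.22 on all arrays. Whether either probe set lies within the plasmid's insert is not given in the sources used here, so these values do not settle the labels, and each direction given for Erg below is that of the arrays as labelled. The 2 arrays labelled Erg on day 0 differed most from each other. The gap between replicates had an SD over all probe sets of 0.61 in that group, against 0.23 in Erg on day 1, 0.34 in control on day 1 and 0.26 in control on day 0. The main test assumes the same spread in all 4 groups, so the spread of Erg on day 0 enters the error of every comparison. Of 12 mesenchymal markers fixed for the check, Vim, an intermediate filament of mesenchymal cells, read between 14.10 and 14.67, and only Meox2 was dim. Their summed intensity was 146118 to 152251 in Erg on day 1, 132981 to 145094 in control on day 1, 83789 to 134098 in Erg on day 0 and 112563 to 117484 in control on day 0.

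All 10 genes read lower on day 1 than on day 0, with either plasmid. Of the 13 probe sets, 9 fell in control cultures on day 1 (limma with Benjamini-Hochberg adjustment over all probe sets, threshold 0.05), where 7.97% of all probe sets were called lower. In the arrays labelled Erg 11 of 13 fell, where 1.67% of all probe sets were called lower. As genes, each by its probe set with the highest mean, these were 7 of 10 with the control plasmid and 9 of 10 with the Erg plasmids. The median difference of the 10 genes was -3.44 in the arrays labelled Erg and -2.87 in control, against medians over all symbols of -0.07 and -0.15. On every one of the 13 probe sets both day 1 arrays lay below both day 0 arrays, with each plasmid, which held for 30.7% of all probe sets with the Erg plasmids and 44% with control. In an extract of a whole culture, fewer cells of a type and less RNA per cell cannot be told apart.

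**Figure D1:**
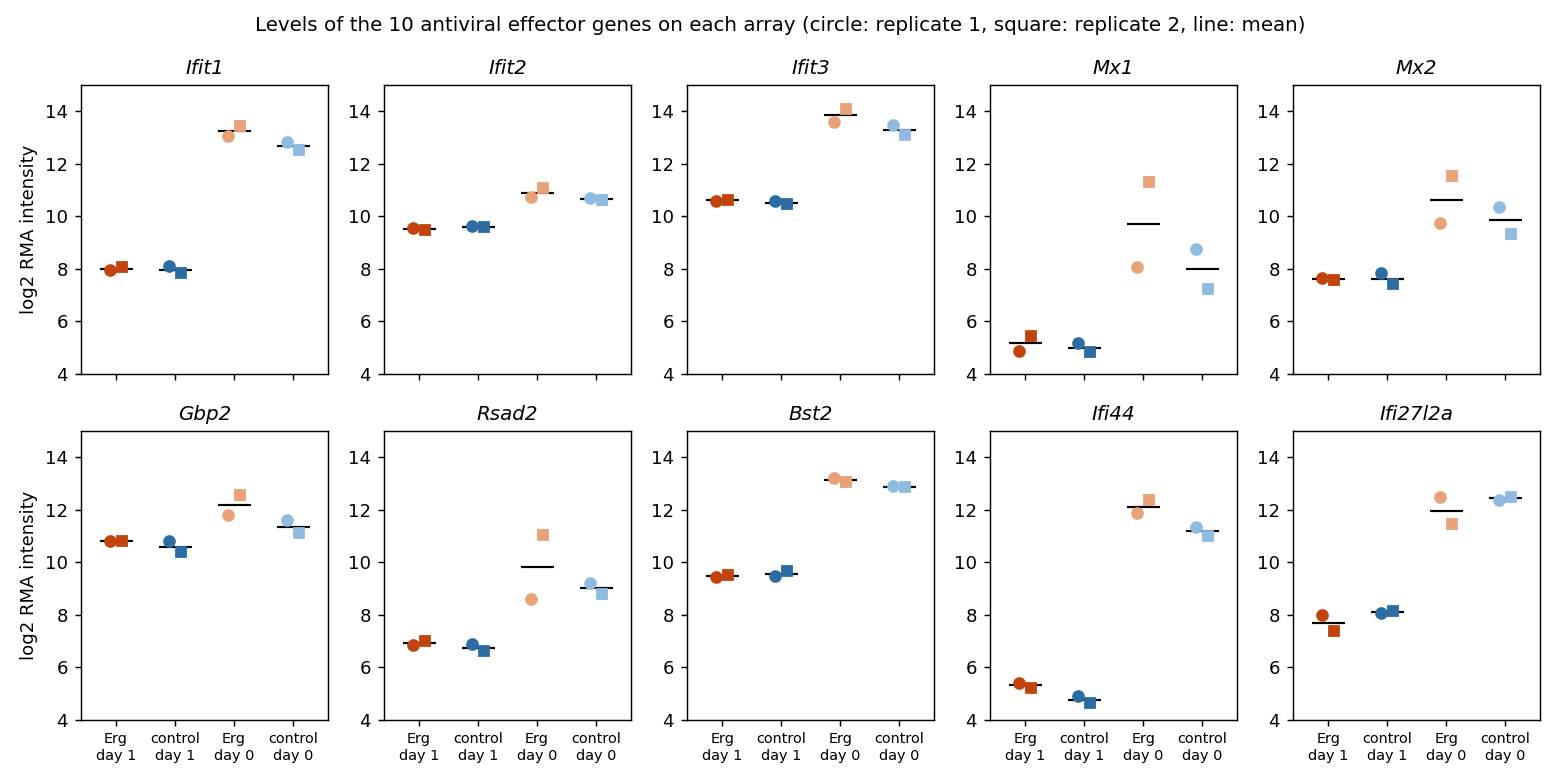
Log2 RMA intensity (vertical axis) of the 10 genes on each array, by group along the horizontal axis, with circles for replicate 1, squares for replicate 2 and lines for group means. Every gene has its 4 day 1 arrays below its 4 day 0 arrays, and Mx1 has the widest spread on day 0, from 7.21 to 11.30.

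Of the 3 Ifit genes, which lie together on chromosome 19, Ifit1 was the most changed. Its probe set 1450783_at (aligned by the authors' table to chromosome 19 from 34715360 to 34724499, build not given in the sources used here) read 7.95 and 8.05 in Erg on day 1, 8.11 and 7.83 in control on day 1, 13.06 and 13.44 in Erg on day 0, and 12.83 and 12.54 in control on day 0. The 4 day 1 arrays lay within 0.28 of one another, and the plasmid groups overlapped on that day alone. On day 1 Ifit1 fell by 5.25 in the arrays labelled Erg (SE 0.19, limma adjusted p = 0.000195) and fell by 4.72 in control (SE 0.19, adjusted p = 0.000395), which is 38.1-fold and 26.3-fold.

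Ifit3, which forms complexes with Ifit1 in human cells, read 10.59 and 10.64 in Erg on day 1, 10.59 and 10.45 in control on day 1, 13.60 and 14.08 in Erg on day 0, and 13.47 and 13.08 in control on day 0. On day 1 it fell by 3.23 in the arrays labelled Erg (SE 0.20, adjusted p = 0.00167) and fell by 2.75 in control (adjusted p = 0.00196). Its probe set 1449025_at was aligned to 2 places on chromosome 19, from 34658020 to 34663526 and from 34682422 to 34687891, so the signal may hold RNA of a near-identical copy and its share is uncertain. Ifit2, an RNA-binding member of the family, moved least of the 3: it read 9.57 and 9.48 in Erg on day 1, 9.62 and 9.59 in control on day 1, 10.72 and 11.08 in Erg on day 0, and 10.70 and 10.62 in control on day 0. Ifit2 fell by 1.38 in the arrays labelled Erg (adjusted p = 0.00726) and fell by 1.06 in control (SE 0.15, adjusted p = 0.00766). Its control call rested on both control arrays of day 0, and the highest adjusted p was 0.0678 when an array was left out. All 3 Ifit genes were above the first quartile on every array.

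Of the 3 large GTPases, Mx1 had the widest spread on day 0. Mx1, whose product acts on influenza viruses in the nucleus of mouse cells that carry an intact gene, read 4.89 and 5.45 in Erg on day 1, 5.16 and 4.84 in control on day 1, 8.08 and 11.30 in Erg on day 0, and 8.74 and 7.21 in control on day 0. It was dim on 3 of the 4 day 1 arrays, so its day 1 level is close to that of probe sets with little signal. Mx1 fell by 4.52 in the arrays labelled Erg (SE 0.99, adjusted p = 0.0452). With each dim day 1 value set at the first quartile of its array, it was 20.1-fold lower. This is used here as a lower bound that covers the dim day 1 level alone and takes the day 0 mean as measured. Without replicate 2 of Erg on day 0 the difference was -2.90, with dim values as read. In control Mx1 differed by -2.98 with an SE of 0.99 and did not pass (adjusted p = 0.0766). That SE pools all 4 groups, and the SD of Mx1 was 2.28 in Erg on day 0 and 1.08 in control on day 0. With the 4 control arrays fitted alone, Mx1 passed in control. Mx2, whose product remains in the cytoplasm, read 7.63 and 7.58 in Erg on day 1, 7.82 and 7.42 in control on day 1, 9.73 and 11.55 in Erg on day 0, and 10.35 and 9.34 in control on day 0. It fell by 3.03 in the arrays labelled Erg (adjusted p = 0.0328) and fell by 2.22 in control (SE 0.59, adjusted p = 0.0416). RefSeq lists both Mx genes as transcribed pseudogenes on chromosome 16 of GRCm38.p6, and the probe sets measured RNA, not a protein.

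Gbp2, a guanylate-binding protein induced strongly by interferon gamma, had 2 probe sets with similar day differences. Probe set 1435906_x_at, a type that may cross-hybridise, read 10.80 and 10.81 in Erg on day 1, 10.79 and 10.37 in control on day 1, 11.80 and 12.55 in Erg on day 0, and 11.59 and 11.11 in control on day 0. Probe set 1418240_at read 9.97 and 10.00 in Erg on day 1, 10.08 and 9.58 in control on day 1, 11.06 and 11.83 in Erg on day 0, and 10.92 and 10.39 in control on day 0. On both probe sets the day groups were apart with each plasmid, and in control Gbp2 had the smallest day difference of the 10 genes. Gbp2 fell in the arrays labelled Erg, with differences of -1.37 and -1.46 on the 2 probe sets (adjusted p = 0.0407 for each), and in control it differed by -0.77 and -0.82 without passing (adjusted p = 0.102 and 0.101).

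Among the restriction factors, Bst2 had the smallest error and Rsad2 the least certain calls. Bst2 read 9.45 and 9.50 in Erg on day 1, 9.48 and 9.65 in control on day 1, 13.19 and 13.04 in Erg on day 0, and 12.89 and 12.85 in control on day 0. It fell by 3.65 in the arrays labelled Erg (SE 0.12, adjusted p = 0.000195) and fell by 3.30 in control (SE 0.12, adjusted p = 0.000346). The authors' table places its probe set 1424921_at on chromosome 17, from 32350615 to 32362569, whereas RefSeq places Bst2 on chromosome 8, so the alignment and the symbol of this probe set do not match.

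For Rsad2 the probe set with the highest mean, 1436058_at, read 6.85 and 6.99 in Erg on day 1, 6.87 and 6.63 in control on day 1, 8.62 and 11.02 in Erg on day 0, and 9.22 and 8.80 in control on day 0. Probe set 1421008_at read 5.74 and 5.76 in Erg on day 1, 5.71 and 5.81 in control on day 1, 7.15 and 9.73 in Erg on day 0, and 8.56 and 8.08 in control on day 0. Probe set 1421009_at read 4.9997 and 4.84 in Erg on day 1, 4.78 and 4.92 in control on day 1, 7.44 and 10.28 in Erg on day 0, and 8.40 and 7.66 in control on day 0. All 3 probe sets had every day 1 array below every day 0 array, and 1421009_at was dim on all 4 day 1 arrays. The probe sets split over the threshold. With the Erg plasmids 1421009_at fell by 3.94 (adjusted p = 0.0379), 11.9-fold by the bound used for Mx1. Probe sets 1436058_at and 1421008_at differed by -2.90 and -2.69 and did not pass (adjusted p = 0.0533 and 0.0772). With the control plasmid 1421009_at fell by 3.18, 6.70-fold by the same bound, and 1421008_at fell by 2.56 (adjusted p = 0.0373 and 0.04995). Probe set 1436058_at differed by -2.26 and did not pass (adjusted p = 0.0587).

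Ifi44, an interferon-induced cytoplasmic protein, had the largest day difference of the 13 probe sets. It read 5.41 and 5.22 in Erg on day 1, 4.89 and 4.63 in control on day 1, 11.87 and 12.36 in Erg on day 0, and 11.36 and 10.99 in control on day 0. On each day both arrays labelled Erg lay above both control arrays, and 3 of the 4 day 1 arrays were dim. Ifi44 fell by 6.80 in the arrays labelled Erg (SE 0.22, adjusted p = 0.000195) and fell by 6.41 in control (SE 0.22, adjusted p = 0.000295). With dim values set at the first quartile it was 108-fold lower in the arrays labelled Erg and 59.3-fold lower in control. These are lower bounds only with the day 0 means taken as measured. Ifi27l2a, a small protein of the Ifi27 family, read 8.004 and 7.38 in Erg on day 1, 8.06 and 8.14 in control on day 1, 12.47 and 11.44 in Erg on day 0, and 12.35 and 12.50 in control on day 0. It fell by 4.26 in the arrays labelled Erg (adjusted p = 0.00355) and fell by 4.33 in control (SE 0.35, adjusted p = 0.00239).

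**Figure D2:**
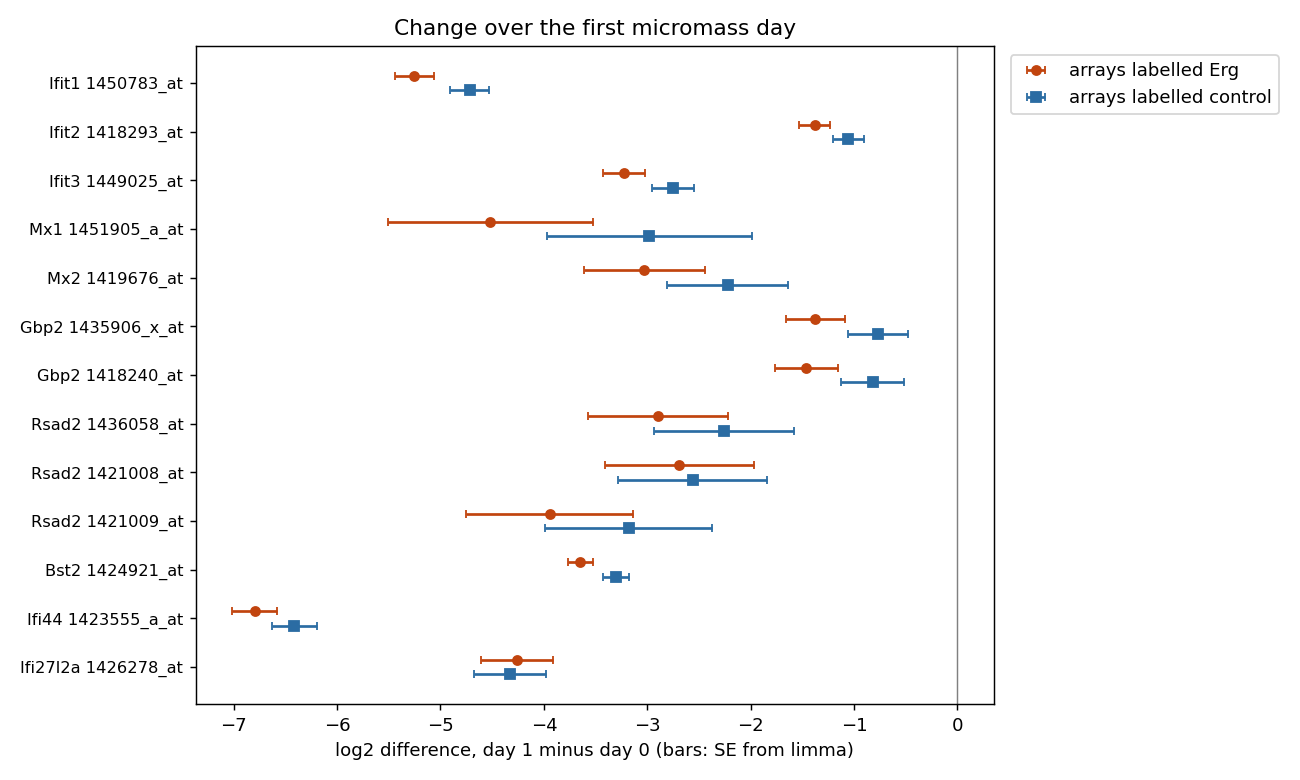
Log2 difference of day 1 minus day 0 (horizontal axis) for the 13 probe sets, with circles for the arrays labelled Erg, squares for control and bars for the SE from limma. All points lie below 0, from -6.80 for Ifi44 in the arrays labelled Erg to -0.77 for Gbp2 in control.

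How firmly these calls stood differed between the genes. In control, Ifit1, Ifit3, Bst2, Ifi44 and Ifi27l2a, 5 of the 9 probe sets called, stayed under the threshold in each of the 18 other settings tried, which included leaving out each array in turn. In the arrays labelled Erg this held for Ifit1, Bst2 and Ifi44, 3 of the 11 called. Several other calls there were weak even in settings that keep all arrays of the comparison. Their limma adjusted p reached 0.167 for Mx1, 0.133 for Mx2 and 0.166 for Rsad2 1421009_at. For Gbp2 1435906_x_at and 1418240_at it reached 0.131 and 0.125. The 2 Rsad2 control calls had an adjusted p of up to 0.188 (1421008_at) and 0.16 (1421009_at) in the other settings, and Mx2 one of up to 0.184. Leaving out 1 array moved the day difference in the arrays labelled Erg most for Mx1 and Rsad2: without replicate 2 of Erg on day 0 it was -2.90 for Mx1 and -1.69, -1.40 and -2.52 for Rsad2 1436058_at, 1421008_at and 1421009_at, and without replicate 1 it was -6.13, -4.10, -3.98 and -5.36. Leaving out any one of the 6 arrays other than these 2 left 5 or 6 of 13 calls with the Erg plasmids, and leaving out either control array of day 0 left 5 with control. With the 4 control arrays fitted alone, Mx1, Rsad2 1436058_at and Gbp2 1435906_x_at, not called in control above, passed as well, and Gbp2 1418240_at did not. The authors' deposited table gives q-values under 0.05 to all 13 probe sets in both day comparisons, up to 0.0392 in Erg and 0.0359 in control.

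Among other genes of the interferon system, paralogs and other effectors of the members had calls in the lower direction alone between the control days. Of 6 measured paralogs of the members, 4 fell and 0 rose, against 7.97% of all probe sets called lower, with a median of -1.06. Gbp3, a guanylate-binding protein, fell by 1.83 (adjusted p = 0.00502) and Gbp6 fell by 1.35. Of 31 other antiviral effectors 15 fell and 0 rose, against the same 7.97%, with a median of -1.09. Xaf1, an inducer of apoptosis, fell by 2.65 (adjusted p = 0.00196), and Parp9, an ADP-ribosyltransferase family member, fell by 2.34. Sp100, a nuclear body protein, fell by 1.95 and Parp12 fell by 1.18. In the arrays labelled Erg 4 of the 6 paralogs and 19 of the 31 other effectors fell, against 1.67% of all probe sets.

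Of the 12 STAT and IRF factors, 5 fell with each plasmid and 0 rose. Of all probe sets 1.67% were called lower in the arrays labelled Erg and 7.97% in control. Irf7, which amplifies interferon production, read 7.25 and 6.29 in Erg on day 1, 7.01 and 6.6025 in control on day 1, 10.26 and 10.40 in Erg on day 0, and 9.56 and 9.36 in control on day 0. Its day groups were far apart with each plasmid, and it fell by 3.56 in the arrays labelled Erg (adjusted p = 0.00404) and fell by 2.65 in control (SE 0.31, adjusted p = 0.00496). Irf9, Stat2 and Irf1 also fell in control, with differences of -1.76, -1.40 and -0.98 (adjusted p = 0.0106, 0.0302 and 0.00785). Of the 8 receptors and Janus kinases 1 rose and 0 fell in the arrays labelled Erg. There 5.32% of all probe sets were called higher and 1.67% lower. With the control plasmid 2 rose and 2 fell, where 11.8% were called higher and 7.97% lower. In control Jak1 and Tyk2, kinases of the type I receptor, rose by 0.84 and 0.61, and Ifngr2 and Il10rb, receptor chains for interferon gamma and interferon lambda, fell, with differences of -0.84 and -0.48. Of 6 measured negative regulators 1 rose and 2 fell in the arrays labelled Erg, and 2 rose and 3 fell in control. The shares of all probe sets are those just given. In control Pias1, a STAT inhibitor, rose by 1.62 and the phosphatase Ptpn11 by 0.59. Socs3 and Socs1, feedback inhibitors of Janus kinases, fell, with differences of -1.47 and -0.64, and the phosphatase Ptpn2 fell by 0.75.

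Of the 7 measured interferon transcripts 2 were called lower in control, against 7.97% of all probe sets. In the arrays labelled Erg 0 were, against 1.67%. Ifnb1, the type I interferon made by fibroblasts, read 5.98 and 5.98 in Erg on day 1, 5.95 and 5.77 in control on day 1, 6.58 and 6.21 in Erg on day 0, and 6.64 and 6.98 in control on day 0. Every day 1 array lay below every day 0 array, and in control Ifnb1 fell by 0.95 (SE 0.18, adjusted p = 0.0168). In the arrays labelled Erg it differed by -0.41 and did not pass (adjusted p = 0.215). In control Ifna5 fell by 0.58 (adjusted p = 0.0329) and was dim on 6 of the 8 arrays. The other 5 of the 7 measured ligands did not pass, and of these Ifna4 and Ifng, the type II interferon, were dim on all 8 arrays.

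**Figure D3:**
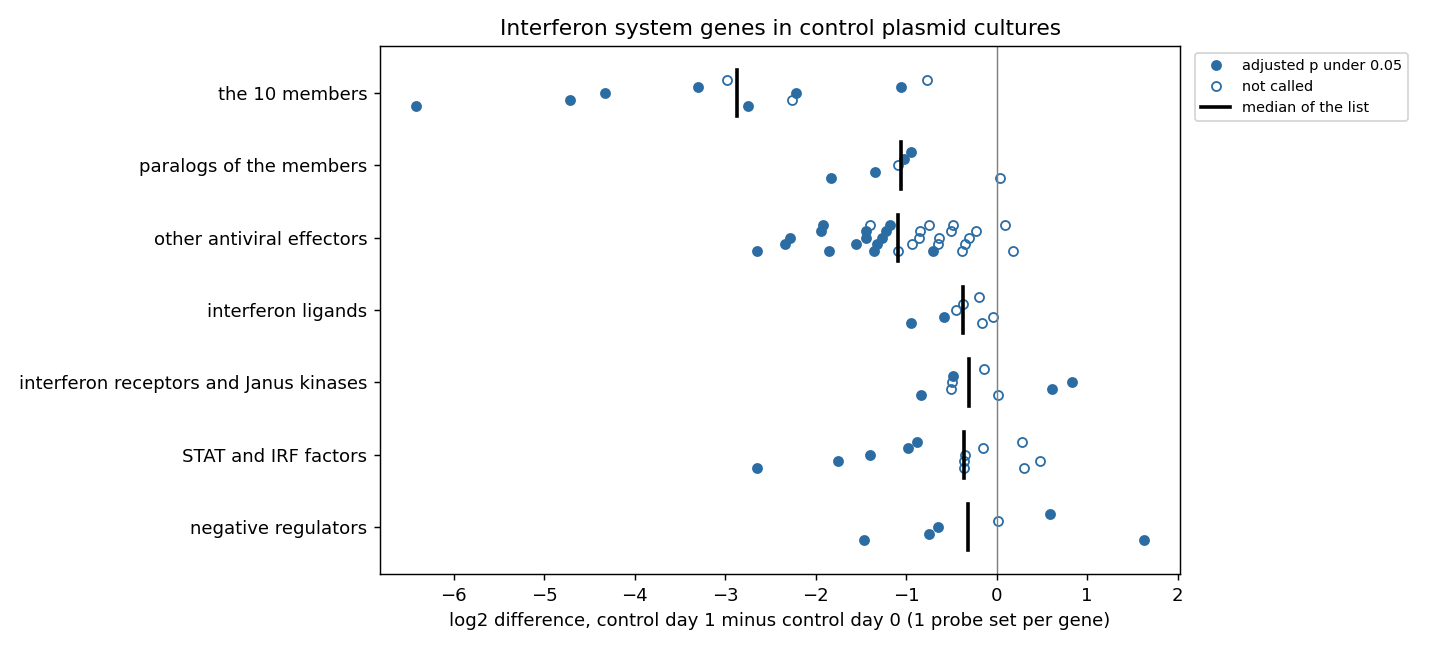
Log2 difference of control day 1 minus control day 0 (horizontal axis) for the 10 members and 6 lists of interferon system genes (vertical axis), with 1 probe set per gene; filled points have an adjusted p under 0.05 and thick lines mark the list medians. The members have a median of -2.87, paralogs -1.06 and other antiviral effectors -1.09, while the 4 lists of ligands, receptors, factors and regulators have medians between -0.37 and -0.31.

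Leukocyte markers moved in the same direction as the members between the control days, with a median of -0.32. Of 18 measured markers 5 fell, against 7.97% of all probe sets called lower, and 0 rose. This direction was not particular to them. The endothelial and epithelial markers each had a median of -0.39 and the mesenchymal markers one of 0.20, against -0.15 over all symbols. Cd14, the lipopolysaccharide co-receptor, fell by 2.32 (adjusted p = 0.00974), and Cd68, a lysosomal protein of macrophages, fell by 1.60 (adjusted p = 0.0443). Ptprc, the pan-leukocyte protein CD45, and the integrin Itgam were dim on all 8 arrays, with Ptprc between 4.31 and 4.73. The summed intensity of the 18 markers was 1837 to 2065 in Erg on day 1, 1844 to 1874 in control on day 1, 2659 to 4113 in Erg on day 0 and 3631 to 4804 in control on day 0. No marker reads 0 on this scale, and the part of these markers in the fall of the members was not tested. In the arrays labelled Erg 2 of the 18 leukocyte markers fell, against 1.67% of all probe sets, and 0 rose. Of the other marker lists, 0 of 9 endothelial, 1 of 8 epithelial and 0 of 12 mesenchymal markers fell with the Erg plasmids and 0 rose, against 1.67% and 5.32% of all probe sets. In control 1 of 9 endothelial and 2 of 8 epithelial markers fell, against 7.97%, and 1 of 12 mesenchymal markers, Pdgfrb, rose, against 11.8%.

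Between the plasmids, the members read mostly higher in the arrays labelled Erg on day 0, and none passed the test. Of the 13 probe sets 12 had a positive difference, against 47.2% of all probe sets, and 0 were called, as 0% of all probe sets were. Unadjusted limma p-values were under 0.05 for 5 of 13, against 5.43% of all probe sets. The 10 genes had a median of 0.68, against -0.03 over all symbols. The 2 arrays labelled Erg lay above both controls on 7 of the 13 probe sets, those of Ifit1, Ifit2, Ifit3, Bst2, Ifi44 and both of Gbp2, against 13.6% of all probe sets, and on 0 they lay below both, against 17.6%. The genes share arrays and are not independent of one another, so these counts are a description.

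Ifi44 had the smallest p, with a difference of 0.94 (SE 0.22, unadjusted p = 0.00364, adjusted p = 0.802), which is 1.92-fold. Ifit1 and Ifit3 each differed by 0.57 (SE 0.19 and 0.20), and Gbp2 by 0.83 and 0.79 on its probe sets 1435906_x_at and 1418240_at (SE 0.29 and 0.31). Mx1 had the largest difference, 1.71, with an SE of 0.99, and Mx2 differed by 0.79 with an SE of 0.59. The differences were 0.25 for Bst2 (SE 0.12), 0.24 for Ifit2 (SE 0.15) and 0.81, 0.12 and 0.83 for the Rsad2 probe sets in the order given above. Ifi27l2a was the exception, with -0.47 (SE 0.35).

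These differences rested in part on replicate 2 of the arrays labelled Erg. It lay above replicate 1 on 8 of the 10 genes, against 44.3% of all probe sets, and by at least 1 log2 unit on 3 of 10, against 6.21%. The 3 were Mx1, with a gap of 3.23, Rsad2 with 2.41 and Mx2 with 1.82. On the control arrays replicate 1 lay above replicate 2 on 9 of 10 genes, against 46.4% of all probe sets, with a gap of 1.53 for Mx1. Col1a1, a collagen gene taken from the mesenchymal markers after its values were seen, read 12.52 and 10.53 in Erg on day 0, and 11.98 and 12.25 in control on day 0, so replicate 2 of Erg was the lowest of the 4 arrays. The part of this array's other differences in the antiviral values was not tested.

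With replicate 2 left out, the median of the 10 genes was 0.21. Mx2 then differed by -0.12 and the Rsad2 probe sets 1436058_at, 1421008_at and 1421009_at by -0.40, -1.17 and -0.59, with 1 array labelled Erg remaining, which is assumed to vary like the other groups. With replicate 1 left out, again with 1 array labelled Erg remaining, the median was 0.99. Mx1 then differed by 3.33, Mx2 by 1.70, Gbp2 by 1.201 and 1.17, Rsad2 by 2.01, 1.41 and 2.25, and Ifi44 by 1.18. Ifi27l2a went the other way, at -0.99. Both arrays labelled Erg gave a positive difference from the control mean on Ifit1, Ifit2, Ifit3, Mx1, Gbp2, Bst2 and Ifi44.

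**Figure D4:**
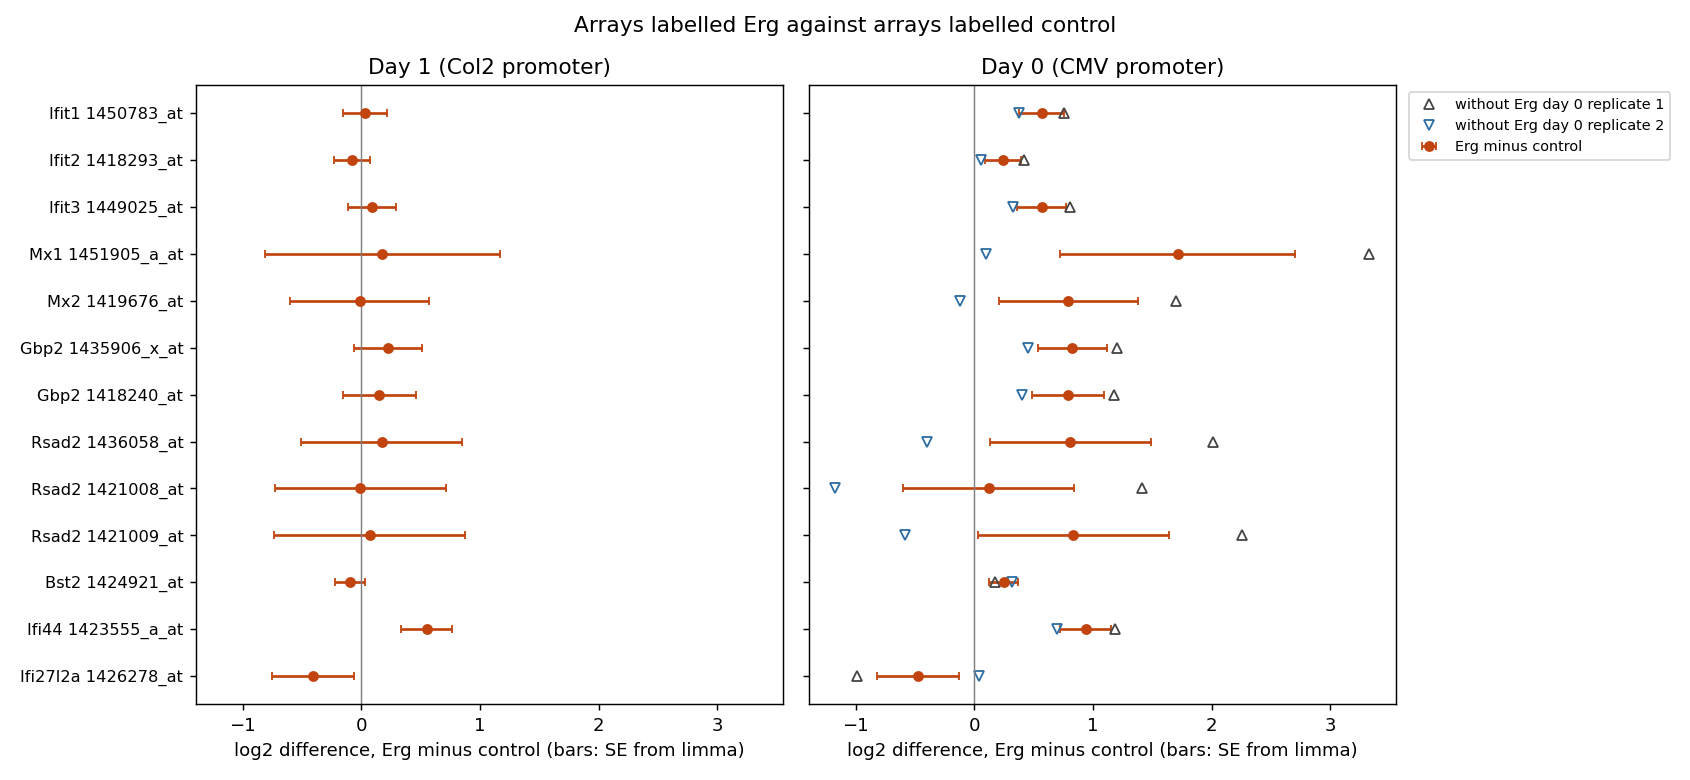
Log2 difference of the arrays labelled Erg minus control (horizontal axis) for the 13 probe sets on day 1 (left) and day 0 (right), with bars for the SE from limma; triangles give the day 0 value with 1 of the arrays labelled Erg left out. On day 0 the points lie between -0.47 and 1.71 and the triangles of Mx1 stand at 0.10 and 3.33, while on day 1 the points lie between -0.41 and 0.55.

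On day 1 no member was called between the plasmids, as 0% of all probe sets were, and the differences were small. They were positive on 8 of 13 probe sets, against 57.3% of all, with a median of 0.06 over the 10 genes. The difference was 0.03 for Ifit1, -0.08 for Ifit2, 0.09 for Ifit3, -0.10 for Bst2 and 0.17 for Mx1, within 1 SE of 0 in each. For Mx1 this SE, 0.99, pools the wide day 0 arrays, and its SDs on day 1 were 0.40 in Erg and 0.23 in control. Ifi44 differed by 0.55 (SE 0.22, unadjusted p = 0.0388, adjusted p = 1), the 1 probe set of 13 with an unadjusted p under 0.05, against 1.37% of all. Both arrays labelled Erg lay above both controls for Ifi44 and for Gbp2 1435906_x_at, 2 of 13 against 19% of all probe sets, and below both for Ifit2 and Ifi27l2a, 2 of 13 against 12.6%. Ifi27l2a differed by -0.41 (SE 0.35).

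The difference between the plasmids did not itself differ between the days at the threshold. For the day 1 value of the Erg difference less its day 0 value, 0 of 13 probe sets were called, as 0% of all were, and 0 of 13 had an unadjusted p under 0.05, against 2.44% of all. The median over the 10 genes was -0.51, and 9 of the 10 were negative, against 46.4% of all probe sets. Ifit1 had the smallest unadjusted p, 0.0851, with -0.54 (SE 0.27), and Mx1 had the largest value, -1.54 (SE 1.40). Ifi27l2a stood at 0.07 (SE 0.49). Without replicate 1 of Erg on day 0, Rsad2 1436058_at passed at -1.84 (adjusted p = 0.0435, and up to 1 in other settings). The authors' deposited table gives no member a q-value under 0.05 for the plasmid on day 0 (0.666 to 0.812), the plasmid on day 1 (1 for all 13) or the interaction (0.875 to 0.889).

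Of the 31 other antiviral effectors 26 read higher in the arrays labelled Erg on day 0, against 47.2% of all probe sets, with a median of 0.48 and 0 called. Among these effectors Tap1, the peptide transporter of antigen presentation, differed by 0.95 (SE 0.30), Parp14 by 0.93 (SE 0.28) and the proteasome subunit Psmb8 by 0.71 (SE 0.19). The other 5 effectors read lower, among them Ifitm1 by -1.18 (SE 0.74), the largest difference of the list, and Ifitm2 by -0.62 (SE 0.55). The remaining interferon lists did not all read higher. Of the 12 STAT and IRF factors 7 read higher, among them Irf7 by 0.87 (SE 0.31) and Stat2 by 0.83 (SE 0.33). Of the 7 ligands 5 read lower in the arrays labelled Erg, with Ifnb1 at -0.42 (SE 0.18). Of the 8 receptors and Janus kinases 6 read lower, with a median of -0.11, and of the 6 negative regulators 4, with a median of -0.17. The adjusted p was at least 0.802 for every gene of these lists. The leukocyte markers had a median of -0.09 on day 0, with 4 of 18 higher and 0 called.

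The distance between member profiles was measured without scaling, so it keeps the size of the day difference, and genes that fell by unlike amounts stand apart even where every day 1 array lies below every day 0 array. After each gene was centred on its own mean, the root mean square log2 difference between 2 members over the 8 arrays was smallest for Mx2 and Rsad2, at 0.23, followed by Ifit2 and Gbp2 at 0.30 and Ifit3 and Bst2 at 0.34. It was largest for Gbp2 and Ifi44, at 2.77. By the same measure, over 20670 symbols outside the list, the genes nearest to Ifit1 were Zbp1, a sensor of nucleic acids, at 0.20, Gm9706 at 0.25, the chemokine Cxcl10 at 0.33, Oas1a, an oligoadenylate synthetase, at 0.34, and the chemokine Ccl7 at 0.40. The nearest to Ifit3 was Xaf1 at 0.09, to Gbp2 Tap1 at 0.14, to Bst2 the chemokine Ccl2 at 0.18 and to Ifit2 the protease Htra2 at 0.09. The nearest to Mx2 was Mlkl, an effector of necroptosis, at 0.29, to Ifi27l2a the transcription factor Mycn at 0.29, to Rsad2 Slfn2 at 0.33 and to Mx1 AA467197 at 0.37. Ifi44 had no close neighbour, the nearest being Cxcl10 at 0.76.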

How the data were processed

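Total RNA of CH310T1/2 micromass cultures was measured on 8 arrays, grouped by the sample titles. RMA, run by the authors before deposit, gave the deposited intensities (background-corrected, quantile-normalized, 1 value per probe set), which are linear; the workbook's notes name Partek GS and the series text dChip, and which was used is not settled. The deposited table also holds the authors' ratio columns of group means, p-values and q-values; of these the q-values alone are quoted, as the authors'. Workbook and series table agree to a relative gap of 4.99e-10. Of 45037 probe sets, 37818 carry 1 symbol, 1399 several and 5820 none.

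Intensities were log2-transformed, none were filtered out, and limma 3.58.1 in R 4.3.3 (lmFit, eBayes) fitted a mean per group, with 4 residual and 2.78 prior degrees of freedom. P-values were adjusted by Benjamini-Hochberg over all probe sets. An exact permutation test of 2 arrays against 2 cannot go below 0.333 and was not used. Errors of differences are SE from limma, whose precision is limited by the small number of arrays. The test was also run on simulated arrays with the same spread in every group. That run does not cover the wider spread of Erg on day 0. Every member probe set is reported, and the one with the highest mean stands for its gene; of other lists, up to 4 genes with the smallest p are named, besides the ligands and STAT or IRF factors; further genes were named after their values were seen. The members and lists were chosen with earlier results of these data known. RefSeq gave promoter sequences and gene types. The nearest genes were found by root mean square difference of centred log2 profiles.

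Whether replicate numbers pair the arrays was checked by the correlation of deviations from group means. It ranged from -0.61 to 0.32 over pairs of groups, so the numbers were not taken as pairs. The alternatives were array weights, cyclic loess, quantile normalization run again, an intensity trend, a minimum mean log2 of 5, 1 probe set per symbol, the series table, the replicate number as a block, a fit on the 4 arrays compared, and leaving out each array. Raw images and detection calls were not used here. Values of 1 listed gene are not reported here.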

Additional observations from a re-analysis of the deposited data

How the results depend on the processing

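With 2 arrays a group, few residual degrees of freedom and no detection calls, small differences and dim levels (Mx1, Ifi44 and Rsad2 1421009_at on day 1) are measured weakly. The count of member probe sets called lower on day 1 in the arrays labelled Erg was 11, against 6 with the replicate number as a block (replicate block) and 3 with the 4 arrays compared alone; in control it was 9, against 12 with the 4 arrays compared alone, and the cause was not tested; with control it ranged from 6 to 13 over the settings that keep all arrays of the comparison. The block was fitted although the numbers do not pair the arrays, and left 0 calls between the plasmids on both days and 0 for the difference between the days; crossed numbers on day 0, a pairing chosen after seeing the data, gave 12 calls with each plasmid between the days. Leaving out 1 array gave 5 to 13 calls in the arrays labelled Erg, 5 to 13 in control, 0 to 8 for Erg on day 0, and 0 to 1 for the difference between the days. The median of the 10 genes ranged over these from -3.84 to -2.95 in the arrays labelled Erg, from -3.13 to -2.39 in control, from 0.21 to 0.99 for Erg on day 0, from -0.0061 to 0.18 for Erg on day 1, and from -0.72 to -0.19 for the difference between the days.

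No day difference of a member changed direction in any setting. Signs that changed belong to differences without a call. After quantile normalization was run again, Rsad2 1421008_at stood at -0.0383 for Erg on day 0 and at 0.0327 for the difference between the days, and Mx2 at 0.0081 for Erg on day 1; after cyclic loess Ifit1 stood at -0.0062 for Erg on day 1, and the cause was not tested. With 1 array left out, Erg on day 0 ranged from -0.12 to 1.70 for Mx2, from -0.40 to 2.01, -1.17 to 1.41 and -0.59 to 2.25 for Rsad2 1436058_at, 1421008_at and 1421009_at, and from -0.99 to 0.0389 for Ifi27l2a. Erg on day 1 ranged from -0.11 to 0.17 for Ifit1, from -0.11 to 0.46 for Mx1, from -0.22 to 0.19 for Mx2, from -0.10 to 0.40 for Gbp2 1418240_at, and from -0.06 to 0.0397 and -0.0109 to 0.15 for Rsad2 1421008_at and 1421009_at. The difference between the days ranged from -3.15 to 0.0743 for Mx1, from -1.72 to 0.10 for Mx2, from -1.84 to 0.57, -1.42 to 1.16 and -2.18 to 0.65 for the 3 Rsad2 probe sets, and from -0.45 to 0.58 for Ifi27l2a.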
